A study of Homo sapiens with 2 samples.

Results

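The genes described here encode 10 matricellular and adhesive glycoproteins of the extracellular matrix: FN1, TNC, SPARC, THBS1, THBS2, POSTN, VCAN, TGFBI, FBN1 and LAMB1. They were taken by gene symbol from the platform annotation, which gives 19775 genes with a probe set of their own, and 35 probe sets carry one of the 10 symbols. The study used U251, an established human glioma cell line, grown in DMEM with 10% serum. Cells given the microRNA miR-31 by transfection make up 1 array, and cells given a control by transfection the other. Both arrays are of type HG-U133_Plus_2, on which sets of short probes read the 3' part of each transcript. The labels do not say what construct was transfected, what the control was or when cells were harvested, and no probe set analysed reads mature miR-31.

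Structural matrix proteins such as fibronectin, fibrillin-1 and laminins form fibres and sheets that cells hold through integrins. Matricellular proteins such as thrombospondins, tenascin-C, SPARC and periostin are secreted into the same space and modify adhesion, growth factor activity and vessel growth. Tenascin-C, fibronectin and versican are known for accumulating in the matrix of gliomas, and TGF-beta is a known inducer of several of these genes.

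The labels name the transfected microRNA as miR-31 without giving the arm. The 5p arm listed by RefSeq, at chr9:21512158-21512178 on the minus strand of GRCh38.p14, is shown with its seed, bases 2 to 8, in capitals. Messages paired with this seed would carry UCUUGCC. The 3' ends of the 10 transcripts were not searched for it here.
hsa-miR-31-5p: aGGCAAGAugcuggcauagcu

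Of the 10 genes, THBS2 was lower in the miR-31 array by over 2-fold, FN1 and FBN1 were higher by over 1.5-fold, SPARC was nearly equal, and POSTN was too dim to compare. Values are linear probe set intensities as deposited. A ratio is the difference in log2(intensity + 16), miR-31 minus control, so a positive ratio is higher with miR-31, and the added 16 understates the change of dim genes. Probe sets were kept from a mean level of 62.7 in intensity, the median of all probe sets, and the brightest kept probe set stands for a gene. With 1 array per group there is no replicate spread and no p-value, and the number of arrays limits the precision. Noise was gauged from 3142 genes with 2 kept probe sets: their disagreement gave a ratio an SD of 0.33. This noise SD was 0.22 for genes with mean intensities above 1069 and 0.30 for those from 479.6 to 1069, and it leaves out differences between cultures.

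By the brightest probe set, 9 of the 10 genes were compared, 3 were higher and 6 lower in the miR-31 array, and the median ratio was -0.27, against 0.03 over all 11787 genes compared. At least 2-fold lower was 1 gene, against 1.58% of all genes, and at least 2-fold higher were 0, against 3.74% of all genes. At 1.5-fold, 2 genes were higher and 1 lower, where all genes had 11.7% and 6.73%. Counts this small among 9 genes do not set the group apart from all genes. The mean ratio of the 9 genes was -0.13. Counting probe sets gave the other sign: of 28 kept, 19 were higher and 9 lower with miR-31, with a median of 0.34, against 0.05 over all 22467 kept probe sets with 1 symbol. At 1.5-fold, 8 of the 28 were higher and 1 lower, where all kept probe sets had 12.0% and 6.72%, and at 2-fold 1 was higher and 1 lower, against 3.58% and 1.67%. The difference comes from genes with many probe sets, FN1, VCAN and THBS1, on which most probe sets had ratios above 0. All kept probe sets of a gene had the same sign in 4 of the 7 genes with several, FN1, VCAN, FBN1 and LAMB1, and the same held for 56.0% of 5918 such genes in all.

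**Figure D1:**
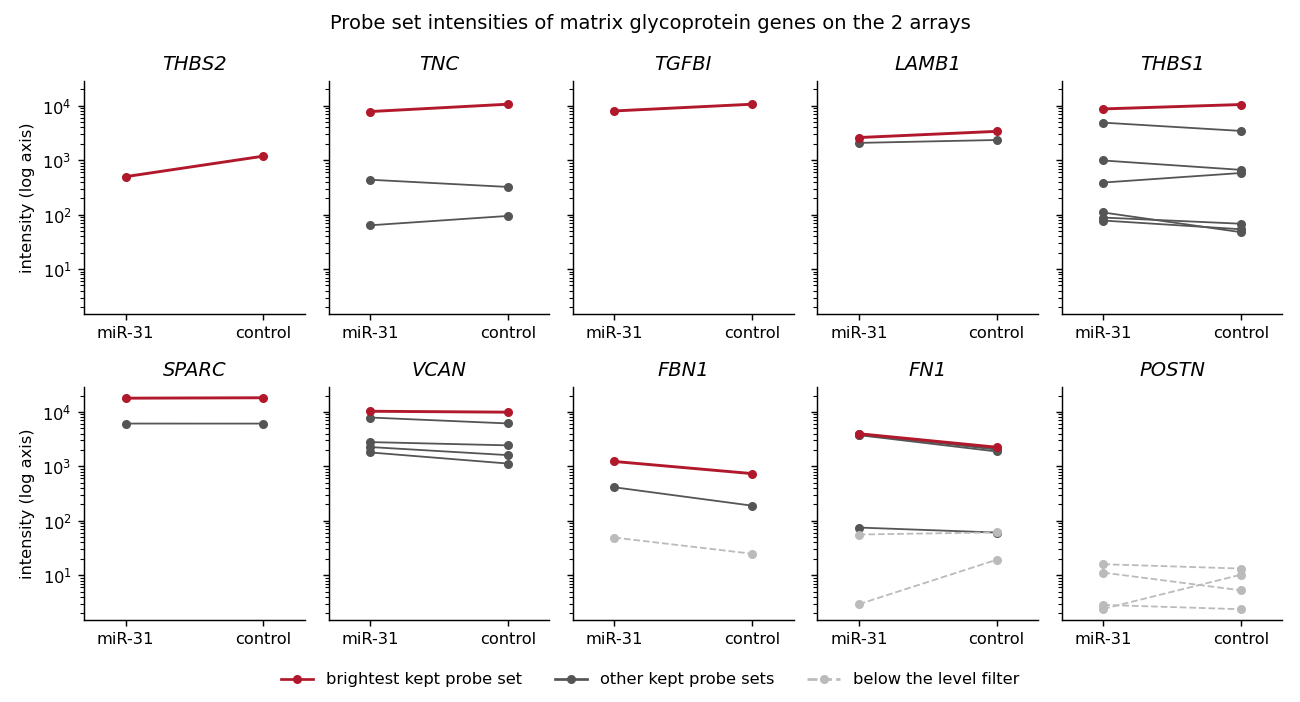
Deposited intensity (log axis) of every probe set of the 10 genes in the miR-31 array (left point) and the control array (right point), 1 line per probe set. The THBS2 line lies lower at its miR-31 end (499 against 1189.5), the 4 bright FN1 lines lie higher there, and all POSTN lines lie below an intensity of 16.

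THBS2 and THBS1 encode thrombospondins, secreted proteins that restrain vessel growth through CD36 and CD47, and THBS1 is also known to activate latent TGF-beta. THBS2 had an intensity of 499 in the miR-31 array and 1189.5 in the control array on its only probe set. The ratio of -1.23, a linear ratio of 0.42, is the furthest from 0 of the 9 genes compared by the brightest probe set and is 4.15 times the noise SD at its level. No second probe set exists to set beside it. In bulk RNA, fewer cells making a transcript and less of it per cell cannot be told apart.

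The 7 probe sets of THBS1 disagreed in sign. Its brightest probe set had 8760.2 in the miR-31 array and 10555 in the control array, a ratio of -0.27. The next brightest had 4905 with miR-31 and 3453 in the control, a ratio of 0.50, and the one after it had 989 and 665, a ratio of 0.56. Bright probe sets of THBS1 thus lay on both sides of 0. A further probe set had 389 with miR-31 and 583 in the control (-0.56), while the 3 dimmest had 88.5 against 68.2 (0.31), 110 against 47.6 (0.98) and 78.0 against 53.9 (0.43). In all, 5 of the 7 probe sets of THBS1 were higher and 2 lower, and they spanned 1.55 on the log2 scale. The median span of 481 genes with at least 5 kept probe sets was 0.74. The direction of THBS1 was therefore not settled by these arrays, and taking the mean of its probe sets gave 0.28.

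FN1 encodes fibronectin, the fibre-forming ligand of integrin alpha5 beta1. Its brightest probe set had 3981 in the miR-31 array and 2248 in the control array, a ratio of 0.82. The other bright ones had 3781 with miR-31 and 2148 in the control (0.81), 3967 and 2030.3 (0.96), and 3752 and 1878 (0.99). All 4 of these probe sets were higher with miR-31 by 1.76-fold to 1.997-fold on the linear scale, and none reached 2-fold on the log2 scale with 16 added. A dim probe set of FN1 had 75.2 with miR-31 and 60.9 in the control, a ratio of 0.25. Of the 481 genes with at least 5 kept probe sets, 14.3% had all of them higher with miR-31, FN1 and VCAN among them. Below the level filter, 1 probe set of FN1 had 56.0 and 61.2, and another had 2.94 with miR-31 and 19.2 in the control. The bright FN1 probe sets are named _x_at or _s_at, which marks probes shared with other sequences or between transcripts. Without these classes, FN1 rested on the dim probe set alone.

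FBN1 encodes fibrillin-1, the backbone of the microfibrils that carry elastin and store latent TGF-beta. It had 1231 in the miR-31 array and 737 in the control on its brightest probe set, a ratio of 0.73. The next had 413 with miR-31 and 189.7 in the control, a ratio of 1.06, the only kept probe set of the 10 genes at least 2-fold higher, where 3.58% of all kept probe sets were. A probe set below the level filter had 49.2 and 24.8, a ratio of 0.68. All 3 probe sets of FBN1 were thus higher with miR-31 by at least 1.67-fold on the linear scale.

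VCAN encodes versican, a large proteoglycan that binds hyaluronan, and it was higher with miR-31 on all 5 probe sets by amounts that differed among them. The brightest had 10300.4 in the miR-31 array and 9912 in the control, a ratio of 0.06. The others had 7906 and 6152 (0.36), 2796 and 2435 (0.20), 2267 and 1610.4 (0.49), and 1804 and 1128 (0.67). Versican messages come in splice forms that differ in their glycosaminoglycan-bearing exons, and which forms these probe sets read was not analysed here. The value of the brightest, 0.06, is within the noise SD, and it turned below 0 when ratios were centred on spike-in controls (-0.13 and -0.50).

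**Figure D2:**
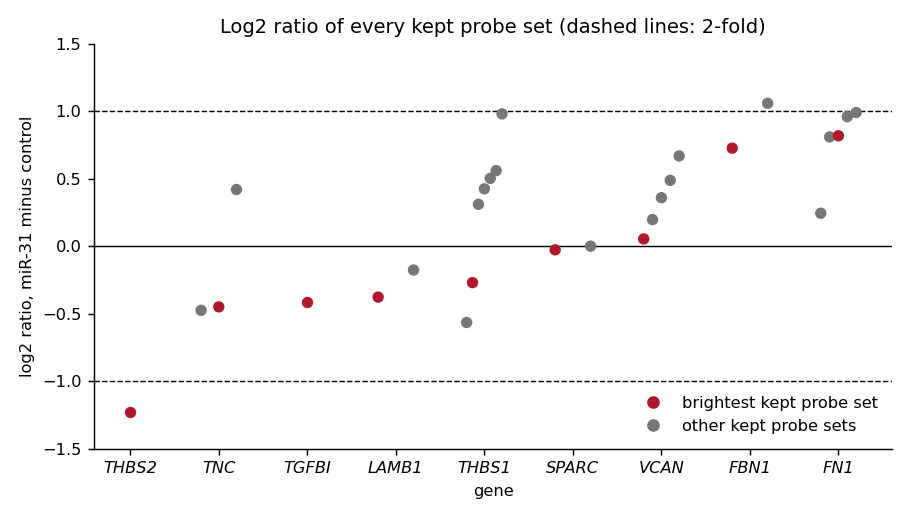
Log2 ratio, miR-31 minus control, of each kept probe set of the 9 genes compared, with the brightest probe set of a gene in red and dashed lines at 2-fold. THBS2 lies below the lower line at -1.23, the 4 bright FN1 probe sets lie between 0.81 and 0.99, and THBS1 runs from -0.56 to 0.98.

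TNC, TGFBI and LAMB1 were lower with miR-31 by less than 1.5-fold. TNC encodes tenascin-C, a hexameric protein that weakens adhesion to fibronectin, and had 7837 in the miR-31 array and 10698 in the control on its brightest probe set, a ratio of -0.45. A dimmer probe set of TNC had 438 and 323, a ratio of 0.42, and another had 63.8 and 94.8, a ratio of -0.47, so the probe sets disagreed in sign. TGFBI encodes a fasciclin-domain adhesion protein induced by TGF-beta, and had 8048 with miR-31 and 10697 in the control on its only probe set, a ratio of -0.41. LAMB1 encodes the laminin beta1 chain of basement membranes, and had 2612 in the miR-31 array and 3394 in the control (-0.38), with 2083 and 2354 on its other probe set (-0.18). The brightest probe sets of TNC, TGFBI and LAMB1 lay 2.05, 1.87 and 1.72 noise SDs from 0, against 3.75 for FN1 and 2.46 for FBN1, with no replicate to set them against.

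SPARC, a collagen-binding glycoprotein that counters cell spreading, was the most nearly equal of the 10. It had 17912 in the miR-31 array and 18231 in the control on its brightest probe set (-0.03), and 6121 and 6113 on the other (0.00). POSTN, which encodes periostin, a fasciclin-domain relative of TGFBI, had 4 probe sets, all below the level filter. They had 15.96 in the miR-31 array and 13.3 in the control, then 11.2 and 5.28, 2.41 and 10.3, and 2.85 and 2.38. No detection calls were used, so these values cannot be separated from background, and no direction is given for POSTN.

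**Figure D3:**
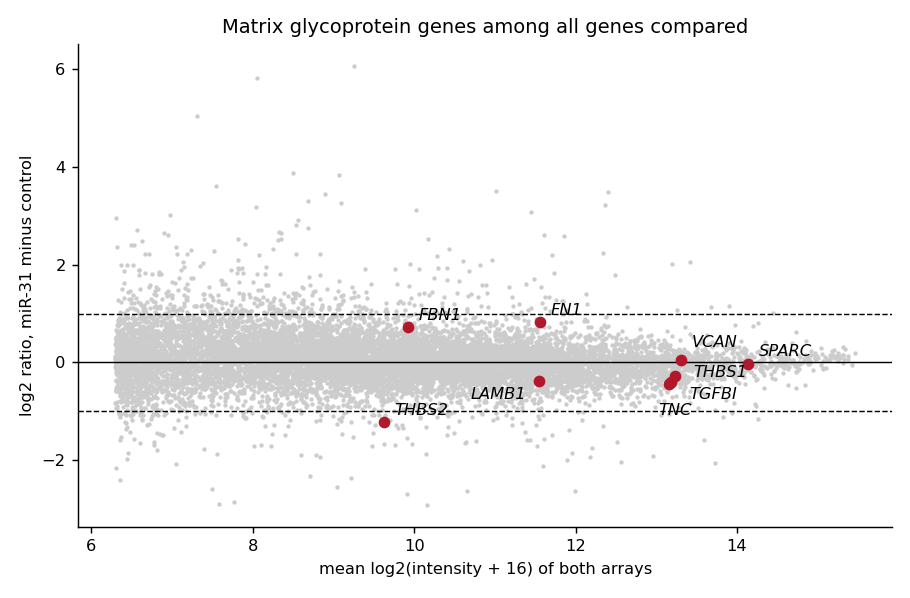
Log2 ratio, miR-31 minus control, against the mean log2 level of both arrays for all 11787 genes compared (grey), each by its brightest kept probe set, with the 9 matrix glycoprotein genes in red and dashed lines at 2-fold. THBS2 is the only red point past a dashed line, and TNC, TGFBI, THBS1, VCAN and SPARC lie among the brightest genes, where the spread is narrow.

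Promoters of the gene furthest below and the gene furthest above 0 by the brightest probe set, THBS2 and FN1, are shown as the 250 bases before the RefSeq gene start in GRCh38.p14, both read on the minus strand. Capitals mark matches on either strand to any of 5 motifs. The cyclic AMP response element, CRE, was searched as TGACGTCA. The AP-1 element was searched as TGANTCA, and the GC box as GGGCGG. The remaining motifs were the CCAAT box, by its name, and a TATA-like run, ATATAA, which was chosen after these sequences were seen. THBS2 lies at chr6:169253847-169254096 and FN1 at chr2:215436069-215436318.
THBS2: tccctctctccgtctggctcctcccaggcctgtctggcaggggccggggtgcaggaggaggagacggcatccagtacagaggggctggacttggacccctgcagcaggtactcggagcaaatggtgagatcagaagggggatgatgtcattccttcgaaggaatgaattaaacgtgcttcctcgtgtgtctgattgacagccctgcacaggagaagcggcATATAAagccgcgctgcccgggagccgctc
FN1: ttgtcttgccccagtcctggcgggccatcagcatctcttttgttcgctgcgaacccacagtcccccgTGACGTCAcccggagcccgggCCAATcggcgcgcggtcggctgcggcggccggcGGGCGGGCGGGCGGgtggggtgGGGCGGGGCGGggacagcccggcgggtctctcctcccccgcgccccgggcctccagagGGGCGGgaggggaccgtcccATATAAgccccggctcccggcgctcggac

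The THBS2 window held the TATA-like letters, starting 30 bases before the gene start, and none of the other motifs. In FN1 the TATA-like letters started at 29 bases, and the window also held a CRE starting at 183, a CCAAT box starting at 162 and 6 GC boxes, some of which overlap. All 10 genes matched a promoter in the table of 27305. The TATA-like letters were in 5 of the 10, FN1, TNC, THBS2, POSTN and VCAN, against 7.96% of all promoters. As these letters were chosen from the THBS2 and FN1 sequences, this count cannot be read as an excess among the 10. The CRE was in FN1 alone of the 10, against 1.77% of all promoters. AP-1 letters were in POSTN alone, against 6.60%. GC boxes were in FN1, TNC, THBS1, VCAN, TGFBI and LAMB1, against 42.3%, and CCAAT boxes in FN1 and THBS1, against 33.0%. Genes that were higher and genes that were lower both held GC boxes and TATA-like letters. A match is a run of letters and not a measured binding site.

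Related genes were described with companion lists, each gene by its brightest kept probe set. Of all 11787 genes compared, 53.2% were higher and 46.8% lower, with 3.74% at least 2-fold higher and 1.58% at least 2-fold lower. Some listed genes had no probe set of their own. Those that had one were 10 of 12 laminins and nidogens, 15 of 16 versican partners, 18 of 19 receptors and all of the other lists. Among other laminin chains and nidogens, 7 of 12 were compared, 2 were higher and 5 lower with miR-31, none at 2-fold, and the median ratio was -0.13. LAMA4, an endothelial and mesenchymal laminin chain, had 1599 in the miR-31 array and 2544 in the control (-0.66). NID1, which links laminin to collagen IV, had 1254 and 1886 (-0.58), and LAMC1, the gamma chain that pairs with LAMB1, had 3986 and 5241 (-0.39). These ratios had the sign of LAMB1.

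Other matricellular genes had a median ratio of -0.53 over 7 of 20 compared, with 2 higher and 5 lower. SPOCK1, a testican of the SPARC family, was the only one past 2-fold, with 173 in the miR-31 array and 397 in the control (-1.12). It rests on 1 kept probe set, and 1.58% of all genes were at least 2-fold lower. CCN2 and CCN1, integrin-binding proteins induced by growth factors and YAP, had 14113 and 26227 (-0.89) and 11941 and 21300 (-0.83), so both were lower with miR-31. THBS4, a further thrombospondin, was below the level filter.

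The microfibril and elastic fibre list, to which FBN1 is closest, was spread in both directions: 14 of 20 were compared, 6 higher and 8 lower, with a median of -0.34. EMILIN2, an elastic fibre glycoprotein, had 166 in the miR-31 array and 488 in the control (-1.47). LOX, which cross-links collagen and elastin, had 432 and 190.5 (1.12), with 0.60 on its other probe set. LTBP1, which binds latent TGF-beta to fibrillin and fibronectin, had 318 and 149 (1.02) on its 1 kept probe set, the sign of FBN1 and FN1. By the brightest probe set its relatives differed in sign, with LTBP3 at 0.71, LTBP2 at -0.60 and LTBP4 at -0.40. Their kept probe sets ran from -0.12 to 1.11 in LTBP3, -1.43 to -0.60 in LTBP2 and -0.40 to 0.40 in LTBP4. FBN2, a fibrillin related to FBN1, had 209 and 265 (-0.32).

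Of the hyaluronan and proteoglycan partners of versican, 6 of 16 were compared, 3 higher and 3 lower, none at 2-fold, with a median of 0.02. HAPLN3, a hyaluronan link protein, had 115 in the miR-31 array and 161 in the control (-0.44). BCAN, the brain proteoglycan brevican, had 251.2 and 190.04 (0.37), and HAS2, a hyaluronan synthase, had 269 and 208 (0.35).

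Receptors for these matrix proteins had a median of 0.05 over 14 of 19 compared, with 8 higher and 6 lower. ITGB3, the beta3 chain of the vitronectin receptor, had 136 in the miR-31 array and 479 in the control (-1.70), with 6 probe sets between -1.70 and -0.05. PLAUR, the urokinase receptor, had 1997 and 5588 (-1.48), with 3 kept probe sets between -1.55 and -0.76. ITGB4, the laminin-binding beta4 chain, had 1872 and 704.6 (1.39), with 3 kept probe sets between 0.43 and 2.05. ITGA5, the alpha chain of the fibronectin receptor and a reported target of miR-31, had 207.5 and 109.6 (0.83), the same sign as FN1. ITGA5 was named after its value was seen.

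Enzymes that cut or process these proteins had a median of -0.36 over 11 of 15 compared, 2 higher and 9 lower, where 46.8% of all genes were lower, with 3 at least 2-fold lower, where 1.58% of all genes were. PLAT, tissue plasminogen activator, had 2066 in the miR-31 array and 7556 in the control (-1.86). ADAMTS15, a versican-cutting protease, had 898 and 2796 (-1.62), and MMP7, a matrix metalloprotease, had 219 and 517 (-1.18). All 3 have 1 kept probe set each, and these were the 3 furthest from 0 in the list.

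**Figure D4:**
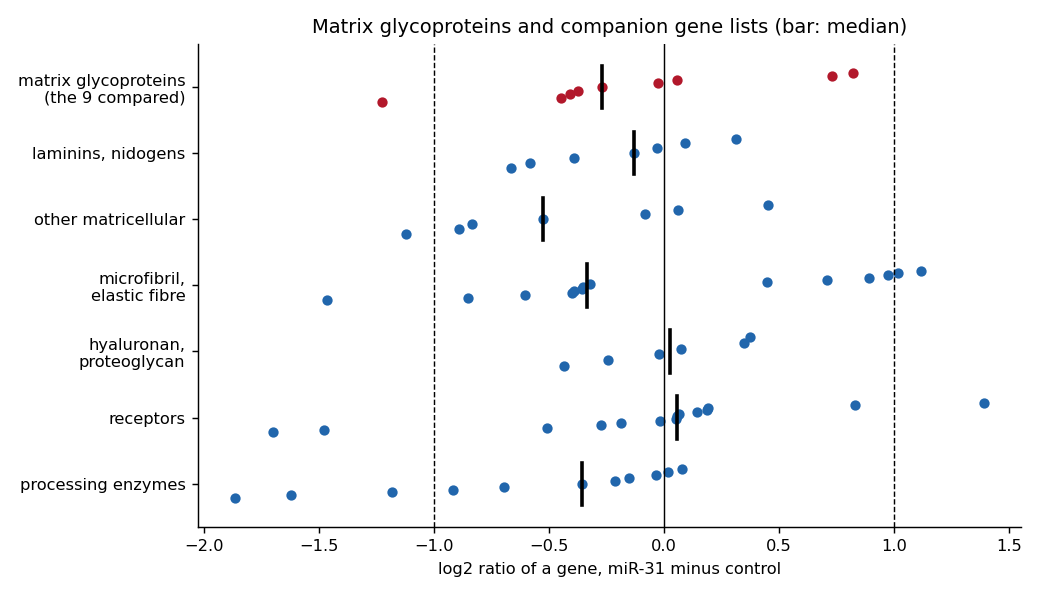
Log2 ratio, miR-31 minus control, of each gene compared (points) in the matrix glycoprotein group (red) and the 6 companion lists (blue), with the median as a bar and dashed lines at 2-fold. Medians run from -0.53 for other matricellular genes to 0.05 for receptors, and the lists overlap widely.

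Of the astroglial and glioma markers 6 of 8 passed the level filter, 2 higher and 4 lower with miR-31, with a median ratio of -0.37. GFAP, the astrocyte filament, had 3624 in the miR-31 array and 2007 in the control, and FABP7, a radial glia lipid carrier, had 17202 and 24657. NES had a ratio of -0.91, SOX9 -0.56, SLC1A3 -0.22 and VIM 0.19, while S100B and AQP4 were below the filter. The other probe set of NES had 0.03, and those of SOX9, FABP7, GFAP and VIM had -0.64, -0.78, 1.03 and 0.68. Fibroblast and mesenchymal markers, which fibroblasts share with cultured glioma cells, had a median of 0.69 over 5 of 8 compared, and 3 of these were higher with miR-31. COL1A2, the collagen I alpha2 chain, had 21028 with miR-31 and 12349 in the control (0.77), while its partner COL1A1 had 1052 and 1629.9 (-0.62). FBLN1 had 0.97, PDGFRA 0.69 and THY1 -0.11, and DCN, LUM and FAP were below the filter. Kept probe sets of a gene often disagreed in sign: they ran from -0.24 to 1.48 in FBLN1, -0.74 to 0.11 in COL1A1 and -0.11 to 0.13 in THY1. PDGFRA had -0.02 on its other probe set, while those of COL1A2 ran from 0.52 to 1.02. Summed over the brightest probe set of each of the 8 genes, the list had 37117 with miR-31 and 25603 in the control. The pericyte and smooth muscle list, with 3 of 6 genes above the filter, summed to 631 with miR-31 and 532 in the control. Of the 3, ACTA2 had 406 with miR-31 and 200 in the control, RGS5 had 113 and 99.7, and MYH11 had 60.1 and 68.0. PDGFRB, below the filter, had 7.57 and 118. All sums of marker lists take in genes below the filter, with dim values that cannot be separated from background. The endothelial list, with 2 of 6, summed to 500.4 with miR-31 and 735 in the control. Of these, KDR had 281 with miR-31 and 539 in the control and PECAM1 had 124 and 121, while VWF and CDH5 were below the filter. In the microglia and macrophage list 5 of 6 genes had a probe set of their own, and 2 passed the filter. This list summed to 258 with miR-31 and 206 in the control. Of the 2 that passed, CSF1R had 101 with miR-31 and 75.9 in the control (0.35), and ITGAM had 61.4 and 76.2 (-0.25). CD14, AIF1 and PTPRC were below the filter, and CD14 had 53.0 with miR-31 and 4.45 in the control. The part of other cell types in the matrix gene ratios was not tested.

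The arrays had been scaled alike: with the lowest and highest 2 percent of values left out, mean intensities were 500.1 on both. Spike-in controls differed, with a median ratio of 0.55 over 24 poly-A control probe sets and 0.19 over 18 hybridisation control probe sets, and centring on them shifts every gene down by those amounts. Of all genes past 2-fold, 70.3% were higher with miR-31 on the deposited scale. That share was 63.0% with median centring, 59.0% with the level trend removed, 57.3% after quantile normalization, 8.84% with the poly-A controls as zero and 42.0% with the hybridisation controls as zero. On the brightest probe sets the signs of THBS2, THBS1, TNC, TGFBI, LAMB1, FN1 and FBN1 were the same under all of these scalings, and FN1 and FBN1 had 0.27 and 0.18 when centred on poly-A controls. SPARC and VCAN changed sign with scaling.

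**Figure D5:**
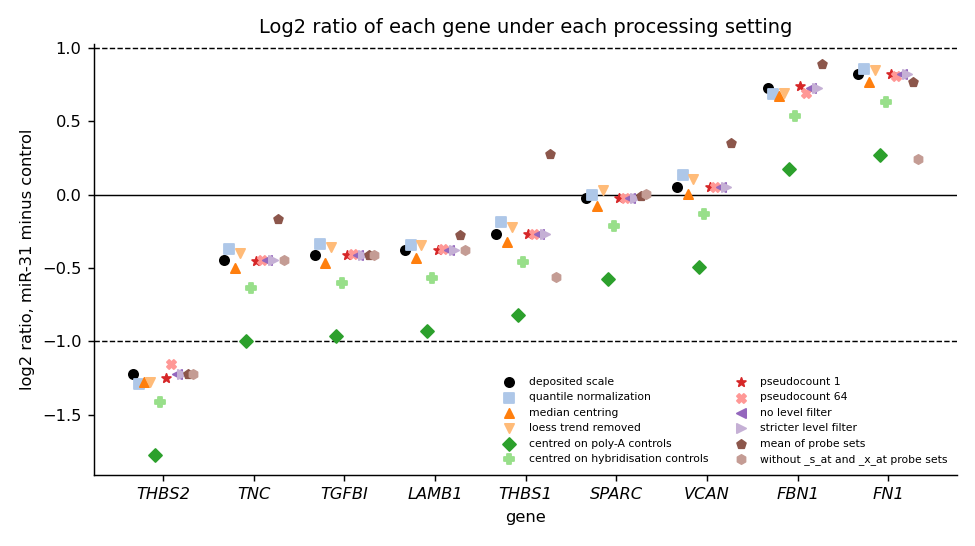
Log2 ratio, miR-31 minus control, of each of the 9 genes under the deposited scale (black) and 11 alternative settings, with dashed lines at 2-fold. THBS2 stays past 2-fold between -1.78 and -1.15, FN1 and FBN1 stay above 0, and THBS1, SPARC and VCAN each lie on both sides of 0.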

How the data were processed

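RNA of U251 cells was measured on 2 arrays, 1 per group, from 250 ng of total RNA each, per the labels' protocols. The values deposited by the authors are linear intensities of 54675 probe sets on each array. Which software made them is not stated in the labels or the file. The supplied annotation gave 41097 of them 1 symbol, 1801 several, and left 11777 unnamed here. Ratios were taken as log2(intensity + 16), miR-31 minus control. Control probe sets were left out, and the level filter left 22467 probe sets with 1 symbol. The 10 genes and the companion and marker lists were chosen with earlier results of these data known. The rule named every probe set of the 10 genes and up to 3 genes with the largest absolute ratio in each companion list. Other genes named, the marker examples among them, were chosen after their values were seen. The alternatives covered scaling, pseudocounts of 1 and 64, level filters (none, and the 75th percentile), the choice of probe set and a 1.5-fold threshold. The loess span was 0.3. The calculation was tested on simulated data. Calculations used Python 3.11.15 with pandas 2.3.3, numpy 2.4.6, statsmodels 0.14.6 (loess) and scipy 1.17.1, and figures matplotlib 3.10.9.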

Additional observations from a re-analysis of the deposited data

How the results depend on the processing

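No paired analysis was possible because the series has no more than 1 array in a group, and none could be left out. THBS2 was past 2-fold under all 11 alternatives to the scale, filter, pseudocount and probe set, between -1.78 and -1.15. Several of these could not have moved it towards 0. With 1 probe set, its ratio stayed at -1.23 under every level filter and choice of probe set. Centring on spike-in controls only moved all genes down by a constant. With a threshold of 1.5-fold, 2 of the 9 genes, FN1 and FBN1, counted as higher, by construction of the lower threshold. The median ratio of the genes was -0.82 when centred on poly-A controls, a constant shift of -0.55. It was -0.01 with the mean of probe sets. With that mean THBS1 was at 0.28, and without _s_at and _x_at probe sets, which left 7 genes, THBS1 was at -0.56, FN1 at 0.25, and FBN1 and VCAN could not be compared. The number of all genes at least 2-fold higher was 1184 without the level filter, 151 with the stricter one and 283 with a pseudocount of 64, and 1002, 100 and 124 were lower. Median centring left 381 higher and 224 lower, and centring on poly-A controls 124 and 1279. Dim probe sets cannot be separated from background here, which limits POSTN and the dim probe sets of FN1, TNC and THBS1.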
